A study of Mus musculus with 4 samples.

Results

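Long intergenic noncoding RNAs are transcripts that lie between protein-coding genes and carry no long open reading frame. Many are spliced and polyadenylated like messenger RNA, many stay in the nucleus, and their levels tend to be lower and more restricted to a cell type than those of messenger RNA. Members of this class with known roles include scaffolds of nuclear bodies, regulators of imprinted gene clusters and host transcripts of small RNAs, and several are known from early mesoderm and blood development.

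The probes described here are the non-control probes of an Agilent mouse expression array whose name is a genome interval in the mouse build mm9 in place of a transcript accession. There were 16194 of them among 55681 non-control probes. The 577 on chromosome X were left out and none lay on chromosome Y, which left 15617 probes on 19 autosomes. They are taken as probes to intergenic noncoding RNA. The files give only the interval and a suffix, so whether a gene lies inside an interval was not examined, and the region names below are intervals, not genes. The letter F or R that ends nearly every name is not defined in the files and is not read as a strand here.

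The RNA came from embryonic stem cells of the mouse line EB5, which carried a red fluorescent protein (RFP) reporter of the homeobox gene Hoxb6. All cells had been differentiated for 6 days on a feeder layer of OP9 cells, which are stromal cells of mouse bone marrow, and all were sorted for Flk-1, the product of Kdr and a VEGF receptor found on early mesoderm. The fractions compared were RFP-negative and RFP-positive, with 2 arrays each and total RNA from each labelled with Cy3. The labels do not say whether replicates came from separate cultures or sorts, so the p-values measure only the spread between these arrays, which may be technical. The 4 arrays lay on 1 slide and were scanned together.

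Levels are log2 signals relative to the 75th percentile of the array, a difference is the RFP-positive mean minus the RFP-negative mean on that scale, and an error is an SD (n = 2 arrays) unless called SE. A probe is called detected where the scanner marked it as well above background. For Kdr, the receptor of the sort, the levels were 4.25 ± 0.11 in the RFP-negative and 4.39 ± 0.03 in the RFP-positive fraction. Hoxb6 was detected on 0 of the 4 arrays, so the gene itself gave no check of the reporter labels. The number of arrays limits the precision of every value: 2 arrays against 2 cannot give an exact two-sided permutation p below 0.333.

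The 15617 probes formed 4432 named sets, where a set is 1 interval with 1 suffix, and covered 3390 intervals. An interval carried both an F and an R set in 1042 cases (30.7%). There were 7890 F probes, 7714 R probes and 13 with no suffix. Most sets were small: 1727 had 3 probes, 957 had 5, 660 had 1 and 143 had the maximum of 10. Interval lengths ran from 62 bp to 7.13e+06 bp with a median of 7451 bp, and 127 intervals were longer than 100000 bp. Intervals also overlapped each other. Merging those that did gave 2126 loci, of which 751 held several intervals. Probes of different names thus often fell in overlapping intervals and are not treated as replicates. Whether they measured the same transcript was not tested.

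Fewer of these probes were detected than of the others on the array. The share detected was 46.0% on RFP-negative replicate 1, 48.8% on RFP-negative replicate 2, 45.2% on RFP-positive replicate 1 and 51.1% on RFP-positive replicate 2. Among the other non-control probes it was 59.1%, 61.2%, 58.1% and 61.7% in the same order, above the coordinate-named probes on each of the 4 arrays. Of the 15617 probes, 5939 (38.0%) were detected on 4 arrays and 6238 (39.9%) on none, against 53.2% and 31.6% of the other probes. The scanner's looser mark of a positive and significant signal gave a mean of 75.5% in place of 47.8%, so the share depends on the mark used. In the same order of arrays it gave 75.3%, 77.9%, 71.1% and 77.8%, against 80.7%, 83.2%, 76.7% and 82.1% of the other probes. The gap to the other probes was thus narrower under the looser mark on each array.

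Detection varied with the length of the interval. Among probes to intervals of up to 1000 bp, 24.4% were detected on 4 arrays. The share was 30.3% for intervals of 1001 to 5000 bp, 43.3% for 5001 to 20000 bp, 40.4% for 20001 to 50000 bp and 39.2% above that. Between chromosomes it ran from 26.9% on chromosome 15 to 49.4% on chromosome 17. These are descriptions of 1 array design, and probe sequence was not examined.

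Within a set, detection was often mixed. Of 3261 sets with at least 3 probes, 453 (13.9%) had every probe on 4 arrays, 1224 (37.5%) had none and 1584 (48.6%) had some. F and R sets of the same interval could be set side by side in 728 intervals with at least 3 probes each. More than 50% of the probes were detected on 4 arrays for both sets in 161 intervals (22.1%), for the F set alone in 90 (12.4%), for the R set alone in 54 (7.42%) and for neither in 423 (58.1%). Only 6 of the 728 intervals had every probe of 1 set and no probe of the other detected on 4 arrays, 3 in each orientation of names.

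For the comparison of the fractions, a probe was tested if it was well above background on both arrays of at least 1 fraction. This kept 7080 coordinate-named probes (45.3%), from 2942 sets and 2255 intervals, and 58.5% of the other probes. Another 2299 were detected on some array but not tested. A probe that passed through 1 fraction alone had to differ in detection, so counts are given beside the same counts over all 30518 probes tested.

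No coordinate-named probe passed an adjusted p of 0.05 in limma's moderated test with Benjamini-Hochberg adjustment over all probes tested (0% of all probes tested passed as well). Adjusted p-values started at 0.253. An unadjusted p under 0.05 was found for 560 probes (7.91%, against 6.21% of all probes tested), 315 higher in RFP-positive cells (4.45%, against 2.97%) and 245 lower (3.46%, against 3.24%). With signal on 4 arrays there were 294 (4.95%, against 3.96%), 183 higher (3.08%, against 2.04%) and 111 lower (1.87%, against 1.92%). Leaving out 1 array changed this count, to 310 without RFP-negative replicate 2 and to 1639 without RFP-positive replicate 1. The median difference was -0.03 for the 7080 probes and -0.06 for all probes tested. It took the opposite sign, 0.05, when arrays were scaled to the median.

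By order of the arrays alone, 1246 probes (17.6%, against 17.8% of all probes tested) were higher on both RFP-positive arrays than on either RFP-negative array, and 1502 (21.2%, against 21.6%) were lower. Among probes with signal on 4 arrays the counts were 1006 higher (16.9%, against 17.5%) and 1192 lower (20.1%, against 20.5%). These shares were near the background. The split moved with the scaling: 45.3% of the separated probes were higher in the scaling used here and 56.3% after scaling to the median.

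By size, 87 probes were at least 2-fold higher on both RFP-positive arrays than on either RFP-negative array (1.23%, against 0.718% of all probes tested), and 57 were at least 2-fold lower (0.805%, against 0.777%). Where the signal was well above background on 4 arrays the corresponding counts were 34 higher (0.572%, against 0.264%) and 6 lower (0.101%, against 0.191%). Of the 87, 42 were undetected on both RFP-negative arrays, and of the 57, 44 were undetected on both RFP-positive arrays. Normexp background correction with an offset of 50, which draws dim signals together, left 2 of the 87 and 1 of the 57 at 2-fold when quantile normalization and median scaling had to give it too. Without RFP-positive replicate 1, the count over both directions went from 144 to 1049, the highest of the counts with 1 array left out.

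The differences of the coordinate-named probes had the wider tails. A difference of at least 1 log2 unit was measured upwards for 421 of them (5.95%, against 3.68% of all probes tested) and downwards for 373 (5.27%, against 4.77%). At 2 log2 units the counts were 78 upwards (1.1%, against 0.600%) and 56 downwards (0.791%, against 0.698%).

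The spread between arrays of 1 fraction was wider for these probes than for all probes tested. The SD of the log2 difference between the 2 RFP-positive arrays was 0.909 against 0.800 for all probes tested, and between the 2 RFP-negative arrays 0.724 against 0.610. Across the 7080 probes, which are not independent, the Pearson correlation was 0.957 between the RFP-negative arrays and 0.931 between the RFP-positive arrays. RFP-positive replicate 1 was closer to RFP-negative replicate 1 (0.963) than to its fellow RFP-positive array. RFP-positive replicate 2 stood farthest apart, at 0.915 and 0.909 with the RFP-negative arrays. It also had the most probes detected on that array alone, 757 (4.85%) against 180 (1.15%) on RFP-positive replicate 1 alone. The other non-control probes showed the same, with 1215 (3.03%) against 301 (0.751%), so this was a trait of the whole array.

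Because no probe passed the threshold, single regions are described by their values. In a bulk fraction, fewer cells of a type and less RNA per cell cannot be told apart. A fold given as "at least" sets the brighter fraction against the lowest signal that counted as well above background on each array of the dimmer fraction, or the dim probe's own value where that was higher. Adjusted p-values are limma's and belong to the measured signals, not to these bounds.

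Among probes detected on 4 arrays and higher in the RFP-positive fraction, the interval chr5:22926562-22927468 (R) stood at the head of the list. Its leading probe read -3.02 and -3.76 on the RFP-negative arrays and -0.69 and -0.82 on the RFP-positive arrays, a difference of 2.63 (SE 0.34, adjusted p 0.45). Both RFP-positive arrays lay well above both RFP-negative arrays. The other two probes of the set differed by 2.12 and 3.50 and did not overlap between the fractions either, although the second was detected on only 1 RFP-negative array.

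The probe to chr14:47978277-47985238 (R) was at -3.93 and -3.72 in RFP-negative and at -1.96 and -1.76 in RFP-positive cells. The arrays of each fraction were close together, with a difference of 1.96 (SE 0.26, adjusted p 0.45), and no other probe of that set was tested. One probe of chr7:16584852-16657252 (R) went from -2.18 and -2.86 to -0.38 and -0.21, and 3 of the 5 tested probes of that set were higher without overlap.

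A pair of overlapping intervals on chromosome 15 gave like values through different probes. The single tested probe of chr15:102032892-102033838 (R) read -2.79 and -2.88 in RFP-negative and -1.16 and -0.73 in RFP-positive cells. One probe of chr15:102026122-102033725 (R), which reaches into the former interval, read -2.76 and -3.13 against -1.24 and -1.01. The other tested probes of the longer interval overlapped between the fractions, so the separation was seen for 1 of its 4 tested probes.

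Other probes detected on 4 arrays and higher without overlap lay in chr6:99472981-99484210 (F), chr2:155289631-155292565 (R) and chr15:68161768-68193518 (R). The chr6 probe was at -3.26 and -3.43 in RFP-negative and at -1.42 and -1.73 in RFP-positive cells. The chr2 probe was at -2.95 and -2.83 against -1.50 and -1.19. The adjusted p of the 8 probes selected in this way, all detected on 4 arrays, lay between 0.449 and 0.683 by limma.

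Lower in the RFP-positive fraction, with signal on 4 arrays, was 1 probe of chr11:95627874-95640824 (F). It read -0.06 and 0.43 on the RFP-negative arrays and -1.80 and -1.83 on the RFP-positive arrays, a difference of -2.00 (SE 0.29, adjusted p 0.55). Of the 10 tested probes of that set only 2 were lower without overlap, so the set as a whole did not separate. A probe of chr19:5841103-5845579 (F) read -0.25 and 0.15 against -1.62 and -1.39, and all 3 tested probes of its set were lower without overlap.

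Further lower probes with signal on 4 arrays lay in chr11:33414450-33450750 (R), chr17:79042382-79052046 (R), chr2:80338640-80339980 (R), chr11:70201624-70203335 (R), chr4:55593675-55629225 (F) and the large interval chr19:5771425-5848475 (F). In the first of them the values were -1.78 and -1.60 in RFP-negative and -2.90 and -2.79 in RFP-positive cells, and 3 of its 4 tested probes were lower without overlap. The chr11:70201624-70203335 probe was at -2.37 and -2.12 against -3.27 and -3.26. The adjusted p of the 8 lower probes lay between 0.550 and 0.772 by limma.

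Some single probes were detected in 1 fraction only, which does not mean that the whole region was. Of the tested probes, 135 were detected on both arrays of the RFP-positive and on neither of the RFP-negative fraction (1.91%, against 1.15% of all probes tested), and 113 showed the reverse (1.60%, against 1.29%). The smallest adjusted p of all, 0.253, belonged to a probe of chr1:63163023-63180223 (R), at -6.34 and -6.14 in RFP-negative and -2.31 and -2.52 in RFP-positive cells. The measured bound was at least 3.23-fold higher. Of the 4 tested probes of that set, 1 was higher and 1 lower without overlap.

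The highest bound in that direction was at least 4.70-fold, for a probe of chr3:131128972-131163308 (R) that read -2.79 and -0.96 on the RFP-positive arrays and was not well above background in RFP-negative cells. Its replicates lay far apart, and the adjusted p was 0.71. A probe of chr6:117827499-117851478 (F) had closer replicates, -1.91 and -1.67, against -4.45 and -3.91 in RFP-negative cells, and was at least 4.50-fold higher. A probe of chr17:3198868-3394643 (R) read -1.84 and -2.20 and was at least 4.17-fold higher, with 3 of 5 tested probes of the set higher without overlap.

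In the opposite direction, a probe of chr4:128727332-128735227 (R) had the highest bound, at least 6.38-fold lower. It read -2.54 and -0.43 in RFP-negative cells, so that bound rests on replicates far apart, and the set's other tested probes held 1 that was higher without overlap. A probe of chr13:98267049-98267604 (F) read -1.89 and -2.54 in RFP-negative cells and was not well above background in RFP-positive cells, at least 4.12-fold lower. All 3 tested probes of this short interval were lower without overlap. A probe of chr4:123575875-123582085 (R), the only one tested of its set, read -2.59 and -2.06 and was at least 3.82-fold lower.

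Sets with several tested probes show whether a difference was shared along an interval. Of 1057 sets with at least 3 tested probes, 231 had every probe above 0, 236 every probe below 0 and 590 (55.8%) probes on both sides. The differences of the probes of 1 set spanned a median of 0.756 log2 units. In 132 sets (12.5%) at least 1 probe was higher and another lower without overlap. Every tested probe separated the fractions the same way in 73 sets, 39 higher and 34 lower. Without RFP-positive replicate 1 there were 323 such sets, and between 167 and 210 without any other single array, since fewer arrays separate more easily. Under quantile normalization, median scaling and normexp alike, 35 of the 39 higher and 14 of the 34 lower sets kept their pattern. Median scaling moves every difference upwards by the same amount, which favours the higher sets, and alone it kept 39 higher and 20 lower. Quantile normalization alone kept 39 and 28, and normexp alone 35 and 22. The unequal counts therefore do not show that the higher sets were the steadier ones.

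The interval chr12:45415565-45423519 separated in the same direction under both suffixes. The 3 F probes differed by 1.58, 3.20 and 3.85, and the 3 R probes by 1.20, 1.84 and 2.61. Its F probe with signal on 4 arrays read -2.77 and -3.00 in RFP-negative and -1.74 and -0.88 in RFP-positive cells, and an R probe read -2.90 and -3.52 against -1.66 and -1.09. RFP-positive replicate 2 was the higher of the RFP-positive arrays for all 6 probes.

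At chr5:108538417-108550517 the 4 tested F probes had a median difference of 2.09 and the 4 tested R probes one of 1.38, all without overlap. All 4 of these R probes but only 1 of the F probes were detected on 4 arrays. The R probe of largest difference read -2.69 and -3.07 in RFP-negative and -1.43 and -0.67 in RFP-positive cells. At chr17:38132217-38157667 the 4 tested F probes, of 8, had a median difference of 1.70. The 3 tested R probes there, of 9, had one of 1.54. Only 1 probe under each suffix was detected on 4 arrays, so the shared direction there was largely set by the filter. At chr15:68161768-68193518 the 3 tested R probes had a median of 1.78, with 1 of them detected on 4 arrays. The 3 tested F probes had one of 0.84, the lowest of them differing by 0.26. The 3 probes of the short interval chr14:27930334-27930974 (F) differed by 1.81, 2.55 and 3.23, 2 of them not well above background in RFP-negative cells. In chr11:51854060-51903278 (F) they were 0.96, 1.70 and 1.73, the last for a probe that read -1.59 and -2.57 in RFP-negative and -0.29 and -0.41 in RFP-positive cells.

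In some brighter sets the differences were smaller, but brightness and difference did not always go together. The dim chr10:81816994-81863610 (F) had a median difference of 0.70, and the brighter chr14:28231577-28242027 (R) one of 1.42. The 5 tested probes of chr14:105497388-105511063 (F) differed by 0.61 to 1.07, each detected on 4 arrays. The brightest of them read 1.33 and 1.13 in RFP-negative and 1.67 and 2.50 in RFP-positive cells. In chr17:12965849-12968519 (F) 3 probes differed by 0.77, 1.19 and 1.37, the last at -0.67 and -1.01 against 0.52 and 0.54. The 4 tested probes of chr13:94182877-94203935 (R) differed by 0.34 to 0.97 and the 3 of the nested chr13:94200051-94200598 (R) by 0.41 to 0.52. A probe of the nested interval read 1.70 and 2.06 in RFP-negative and 2.33 and 2.26 in RFP-positive cells.

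Among the lower sets, chr14:77511189-77522852 (F) had 4 tested probes that differed by -2.65, -1.72, -1.68 and -0.98. The third of them read -3.51 and -3.46 in RFP-negative cells and was not well above background in RFP-positive cells, at least 1.71-fold lower. The 5 probes of chr17:17462450-17488725 (F) were among the bright ones and differed by -1.08 to -0.63. One of them read 8.02 and 7.76 in RFP-negative and 7.63 and 6.51 in RFP-positive cells. RFP-positive replicate 1 lay close to the RFP-negative arrays there, and RFP-positive replicate 2 lay clearly below all others. The same order held at the nested chr17:17481706-17482457 (R), where 1 probe read 7.44 and 7.27 in RFP-negative and 7.23 and 6.34 in RFP-positive cells. It held as well at chr4:13369325-13456750 (F), whose 4 probes had a difference of -0.55 or below, the brightest at 8.66 and 8.59 against 8.47 and 7.68.

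Some dimmer lower sets showed that order too. In chr15:8463685-8494960 (F) the 3 probes differed by -2.32, -1.56 and -1.53, and the second read -1.13 and -1.53 in RFP-negative and -1.73 and -4.04 in RFP-positive cells. In chr9:95295459-95301266 (F) a probe read -1.71 and -0.51 against -1.91 and -2.75. The sets named here leaned on RFP-positive replicate 2, the array that stood farthest apart, and so did most of the 34 lower sets. A few of the lower sets did not. In chr19:5834117-5835940 (R) the median difference from the RFP-negative mean was -2.37 in RFP-positive replicate 1 and -0.75 in replicate 2. In chr15:76193801-76194225 (F) these medians were -1.05 and -0.47. Most of the 39 higher sets also had the larger median in replicate 2, such as 0.77 and 1.98 in chr14:28231577-28242027 (R).

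Neighbouring and nested intervals did not always go together. In chr11:3538125-3554450 (R) the 3 tested probes differed by -1.66, -1.55 and -0.88, while the 3 of the nested chr11:3542140-3546888 (R) differed by 0.53, 0.55 and 0.63. None of the former was detected on 4 arrays. They passed the filter through the RFP-negative fraction alone, so their direction was largely set by it. The F set of the longer interval had a median of 0.34. The nested probes were brighter, one of them at 0.77 and 1.03 in RFP-negative and 1.17 and 1.70 in RFP-positive cells. On chromosome 6 the 3 probes of chr6:116116949-116119051 (R), 1 of them detected on 4 arrays, differed by 0.98, 1.94 and 2.45. The 3 bright probes of the nearby chr6:116123643-116124550 (F) differed by -0.75, -0.60 and -0.54. On chromosome 5 the 3 of chr5:124687732-124689745 (F) differed by 0.49 to 1.97, and the 3 of chr5:124697599-124700029 (F) by -1.20, -0.53 and -0.42. The 73 sets lay in 58 loci, 14 of which held several such sets, and 3 of those 14 held both directions.

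F and R sets of the same interval tended to give like differences. In 235 intervals with at least 3 tested probes each, both medians were above 0 in 79, both below 0 in 83 and of opposite sign in 73. The Pearson correlation of the 2 medians over these intervals was 0.551. It is a description only, since all intervals share the same 4 arrays.

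The most tested probes in a set were 10, a number that 32 sets reached. Their median differences ran from -0.94, for the F set of chr19:5771425-5848475, to 0.85, for chr16:4867322-4874772 (F), and 28 of the 32 lay within 0.5 of 0. In the first 6 of them by chromosome and start the medians were -0.16 for chr2:158169020-158191295 (R), -0.15 for chr2:155269145-155303251 (F), -0.07 for chr1:162965309-162970704 (R), 0.08 for chr1:183783306-183834531 (F), 0.08 for chr2:119412770-119435110 (R) and 0.48 for chr1:167797581-167803031 (F).

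Merged loci were also described, chosen after their values were seen. Of 187 loci with at least 10 tested probes, 19 had at least 50% of them higher and 13 at least 50% of them lower without overlap. By single probe, the shares over all probes tested were 17.8% higher and 21.6% lower. Probes of 1 locus are not independent, so these shares do not tell how many such loci to expect. On chromosome 4, at 126710640 to 126721240, 17 of 20 tested probes were higher, with a median of 0.37. On chromosome 14, at 105497388 to 105513462, 15 of 16 were higher, with a median of 0.74. Both counts stayed at 15 or more under quantile normalization, median scaling and normexp, of which median scaling moves all differences upwards. On chromosome 7, at 66562376 to 66579519, 16 of 21 were higher with a median of 0.50, which was 0.18 without RFP-positive replicate 2 and 0.79 without RFP-positive replicate 1.

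On the lower side, 16 of 26 tested probes were lower on chromosome 12 at 110944403 to 110988678, with a median of -0.59, and 8 of 14 at the neighbouring locus 110894095 to 110940553, with a median of -0.48. Under median scaling the second count was 6.

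The locus with the most lower probes lay on chromosome 19 at 5771425 to 5848475, where 19 of 27 tested probes were lower and 2 higher, with a median of -0.63. Elsewhere on that chromosome 25 of 114 tested probes (21.9%) were lower. The count was 13 of 27 under quantile normalization, under median scaling and under normexp. The median was -0.25 without RFP-negative replicate 2, -0.30 without RFP-positive replicate 2 and -0.43 without RFP-positive replicate 1.

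The difference was not even along this locus. The 9 tested probes of the intervals between 5795690 and 5802597 were bright and nearly equal, with differences from -0.22 to 0.28. One of them read 7.81 and 7.95 in RFP-negative and 7.75 and 8.01 in RFP-positive cells. Those of chr19:5834117-5835940 (R) differed by -2.52, -1.56 and -1.35 and those of chr19:5841103-5845579 (F) by -1.45, -1.34 and -0.75. A probe of the former read -0.21 and 0.25 in RFP-negative and -2.34 and -0.72 in RFP-positive cells. The enclosing F set had 8 of 10 tested probes lower, with a median of -0.94.

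Long noncoding RNA genes that the array names by gene were set beside these regions. Of 86 listed genes, 43 had a probe and 31 were tested. None passed the adjusted threshold in limma, 4 were lower and 0 higher at an unadjusted p under 0.05 (against 3.24% and 2.97% of all probes tested), and 9 were lower and 1 higher without overlap (against 21.6% and 17.8%). Their median difference was -0.15, against -0.06 for all probes tested. Rmrp, the RNA component of an RNA-processing ribonuclease, read 4.64 and 4.54 in RFP-negative and 3.72 and 2.95 in RFP-positive cells. Neat1, the scaffold RNA of nuclear paraspeckles, read -0.19 and 0.53 against -0.94 and -1.77. Terc, the RNA template of telomerase, read 1.86 and 0.96 against 0.53 and -0.31. Dnm3os, a precursor transcript of microRNAs, read -1.89 and -1.47 against -2.75 and -5.36, the last not well above background. The adjusted p of each was 0.78.

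Lists of cell type markers are given beside the regions. Over all probes tested, 21.6% were lower and 17.8% higher without overlap, and the median was -0.06. Of 19 tested OP9 stroma and fibroblast markers 13 were lower without overlap and 1 higher, with a median of -0.68, and the summed linear level was 347.4 and 392.5 in RFP-negative and 332.7 and 307.8 in RFP-positive cells. Of 17 adipocyte differentiation markers 13 were lower and 0 higher, with a median of -1.20. Their summed level was 88.3 and 85.3 in RFP-negative and 47.8 and 43.0 in RFP-positive cells. Of 17 markers of Flk-1-positive mesoderm and endothelium 9 were higher and 0 lower, with a median of 0.23 and summed levels of 123.9 and 124.1 against 139.7 and 144.4. Of 8 tested pluripotency markers 2 were lower, a share near that of all probes tested, and 0 higher, with a median of -0.39. In none of these lists did a gene pass the adjusted threshold, and the part of these cell types in the differences of the regions above was not tested.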

How the data were processed

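Total RNA of 4 samples, grouped by the labels' reporter status, was hybridised to 1-colour arrays. The deposited intensity values are processed signals made by the authors with Agilent Feature Extraction 10.10.1.1 (protocol GE1_1010_Sep10, array design annotated on mm9), per the file headers. The deposited value table holds the same intensity multiplied by 1 constant per array (6.45 and 6.02 in RFP-negative, 5.82 and 5.39 in RFP-positive arrays, with column medians of 136.2, 143.9, 133.9 and 142.3). The origin of the constants is not stated there.

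Of 62976 spots per array, 3671 controls and, on the array concerned, 115 to 153 spots marked as outliers or not uniform were left out. The log2 signal minus that of the array's 75th percentile (183.2 and 208.1 in RFP-negative, 206.4 and 249.8 in RFP-positive) was used. No spot was saturated. The lowest signals well above background were -4.00 and -4.22 in RFP-negative and -3.98 and -4.54 in RFP-positive arrays. All 30518 probes tested were fitted with limma 3.58.1 in R 4.3.3 (lmFit, eBayes, Benjamini-Hochberg), with 2 residual and 2.79 prior degrees of freedom. The fit was tested on simulated data. Alternatives were other scalings, normexp, the value table, other filters, eBayes with trend, a replicate block, other thresholds and leaving out each array. Averaging the probes of a set, the sets and loci under other scalings, and these with 1 array left out, were chosen after seeing the data.

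The region probes and the gene lists were chosen with earlier results of these data known. Regions were chosen for naming per direction, and not all of those chosen are described above. The first were the 12 of smallest p among probes at least 2-fold apart between every RFP-positive and RFP-negative array (none passed the threshold). Then came the 8 of smallest p detected on 4 arrays without overlap and the 6 of highest bound detected in 1 fraction alone. Added to these were 6 of the 32 sets with the most tested probes, the first by chromosome and start. Other sets and loci were named after their values were seen. Regions on chromosome 18 are counted and not named. Sequences were not printed, as no mm9 genome or probe sequence was used here. Gene names were matched through RefSeq accessions for 27278 probes (20662 genes), with 1 probe per gene, that of highest mean.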

Additional observations from a re-analysis of the deposited data

How the results depend on the processing

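No coordinate-named probe passed an adjusted p of 0.05 under any setting run, nor with the probes of a set averaged. The 45 probes chosen for naming, not all of them described above, kept their sign and their side of the threshold in all 601 values over 14 alternatives. They had been chosen for fractions that lay apart or for detection in 1 fraction alone. Their kept sign was therefore largely fixed by the choice and is no independent check. Replicates share a number in the labels, which do not say that it marks a shared culture or sort. The number was therefore not used as pairing. The deviations of the replicates correlated at 0.091 over all probes tested, a value that cannot decide whether arrays were paired. With the replicate block, 0 probes passed and 666 had an unadjusted p under 0.05. Without the filter on dim probes, 967 had an unadjusted p under 0.05, 364 were 2-fold apart, 4777 did not overlap and the median difference was -0.12. The median was 0.051 under median scaling. The 2-fold count was 3 under normexp, 40 with signal on 4 arrays required and 393 at 1.5-fold. With 1 array left out, the 2-fold count ranged from 324 to 1049, the unadjusted count from 310 to 1639, the count without overlap from 4569 to 5572, the median difference from -0.10 to 0.02 and the sets with every probe separated from 167 to 323. A looser detection mark gave 75.5% in place of 47.8%. The cause of these changes was not tested, except that fewer arrays separate more often by construction. Among the 2-fold probes 60.4% were higher, and 72.9% after quantile normalization; of those with an unadjusted p under 0.05, 56.3% were higher, and 67.5% after median scaling. Signal over background limits most bounds, since 86 of the 144 2-fold probes were undetected in the dimmer fraction.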
